A study of Mus musculus with 2 samples.

Results

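The cytosolic ribosomal protein genes were taken as the protein-coding genes of the GENCODE M21 annotation of the mouse genome GRCm38 (mm10) whose symbols follow the Rpl and Rps series, with Rplp0, Rplp1, Rplp2 and Rpsa, and that have 2 or more coding exons. This rule used the symbol and the exon count only. It found 77 genes of the 21853 protein-coding genes on chromosomes 1 to 19, X and Y: 31 of the small ribosomal subunit, 43 of the large subunit and 3 of the acidic stalk. Fau, which encodes a ribosomal protein fused to a ubiquitin-like domain, and Rack1, a scaffold protein of the small subunit, carry other symbols and were left outside the set.

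The series holds DNase-seq of urinary bladder tissue from adult female mice of the strain B6CASTF1/J, a first-generation cross of C57BL/6J and CAST/EiJ, at 18 to 20 months of age. DNase-seq maps where the nuclease DNase I cuts chromatin, so that peaks of cuts mark open chromatin and short protected stretches inside them, called footprints, mark bases shielded from the enzyme. There were 2 libraries, biological replicates 1 and 2 of 1 group, with no second tissue or treatment. They came from different biosamples under a single donor entry, and the labels do not say whether the tissue of each came from its own animal, so the spread between them may be technical, and with 1 group of 2 no test between conditions could be made.

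Each ribosome holds a single copy of nearly every ribosomal protein, and the genes that encode them are scattered over the chromosomes rather than clustered. They are transcribed in all dividing and most resting cells, from compact promoters with a C-started run of pyrimidines at the start site that places their mRNAs under the control of mTOR signalling. Factors of the SP, ETS and YY1 types are among the known activators of these promoters, and many of the genes carry small nucleolar RNA (snoRNA) genes in their introns.

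The promoter was the stretch of 1000 bp on either side of any start site of a protein-coding transcript, and the value used was the deposited signal of the strongest peak in it. The sequences below show the letters that recurred around these start sites. They are reference sequence, so alleles of the CAST parent are not shown. In the first set, 30 bases around a match to TCTCGCGA are given for 5 genes, because 14 of the 77 members held these letters. The capitals mark the match, which in 4 of these genes runs on into the full palindrome TCTCGCGAGA, known as the binding sequence of the factor BANP.
Rps28 (chr17:33824544-33824573, minus strand): ccgcgtgcggTCTCGCGAGAgcgaaagtga
Rpl26 (chr11:68901530-68901559, plus strand): gctccgagacTCTCGCGAGAtctcgcggca
Rps6 (chr4:86857399-86857428, minus strand): cgccggctgtTCTCGCGAGAacttagagcg
Rpl10a (chr17:28328524-28328553, plus strand): aacgggcaacTCTCGCGAGAacgcgggctc
Rpl7a (chr2:26910744-26910773, plus strand): agggcgcctgcTCTCGCGAtatctgcggcc

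The second set shows 29 bases around the ETS core, capitals CCGGAAG, the letters that the factor GABP and its relatives bind. It was the commonest motif of the members after that of SP and KLF factors.
Rpl15 (chr14:18271126-18271154, minus strand): tgggagagcatCCGGAAGcggcgggctgt
Rpl31 (chr1:39367848-39367876, plus strand): ctccccgtgacCCGGAAGttgtacggcta
Rpl37 (chr15:5116579-5116607, plus strand): accaagacccgCCGGAAGtagtttcctgg
Rpl8 (chr15:76904040-76904068, plus strand): atggccccgccCCGGAAGataaggctgcg
Rpl6 (chr5:121204502-121204530, plus strand): ttgcttatagaCCGGAAGccgctgcctta

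The third set gives the 110 bases just before the start site of 4 genes with high promoter signal. Capitals there mark bases that lay inside a footprint in both libraries. Rplp0, Rps12 and Rpl23 were among the 6 members of highest signal, and Rps21 was chosen after its values were seen, because footprints covered its ETS cores.
Rplp0 (chr5:115559357-115559466, plus strand): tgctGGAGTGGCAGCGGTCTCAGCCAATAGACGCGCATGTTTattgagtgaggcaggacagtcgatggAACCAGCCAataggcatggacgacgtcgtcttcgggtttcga
Rps12 (chr10:23787276-23787385, minus strand): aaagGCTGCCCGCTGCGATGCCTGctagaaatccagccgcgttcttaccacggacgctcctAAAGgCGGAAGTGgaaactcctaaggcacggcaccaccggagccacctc
Rpl23 (chr11:97782438-97782547, minus strand): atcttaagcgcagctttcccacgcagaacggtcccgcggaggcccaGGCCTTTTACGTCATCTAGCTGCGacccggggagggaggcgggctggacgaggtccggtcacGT
Rps21 (chr2:180257267-180257376, plus strand): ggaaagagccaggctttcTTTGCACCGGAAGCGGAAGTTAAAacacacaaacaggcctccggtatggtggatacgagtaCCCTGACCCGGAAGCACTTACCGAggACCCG

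In Rplp0 the capitals covered a CCAAT letter group and part of a second, and in Rps21 they covered both ETS cores. For 3 of the 6 members of lowest signal, Rps4x, Rpl6 and Rpl4, the same stretch held no base inside a footprint in both libraries, as shown for Rps4x and Rpl6.
Rps4x (chrX:102189395-102189504, minus strand): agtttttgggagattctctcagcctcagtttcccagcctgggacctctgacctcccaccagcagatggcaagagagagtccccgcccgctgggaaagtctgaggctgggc
Rpl6 (chr5:121204371-121204480, plus strand): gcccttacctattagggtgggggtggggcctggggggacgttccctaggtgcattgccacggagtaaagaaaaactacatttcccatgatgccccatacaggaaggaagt

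Of the 75 members for which the stretch was read (the 2 on chromosome 18 were not), 9 held no such base and the median held 22 of 110. The 9 were not all of low signal: Rpl28, with 5.95 and 6.05 in replicates 1 and 2, and Rpl12, with 5.21 and 5.99, were among them. The strongest peak of Rpl28 covered the stretch in both libraries. That of Rpl12 began 22 bases after the start site in both, so its signal came from outside the stretch. The strongest peaks of Rpl4 and Rpl35 also lay outside it in both libraries. At Rpl6 the peak of replicate 1 began 20 bases after the start site, outside the stretch. Its ETS core shown above, also after the start site, touched a footprint in both libraries.

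Tissue markers were read first. All 10 urothelial, 6 smooth muscle and 5 fibroblast markers had a promoter peak in both libraries, against 1 of 5 leukocyte markers in each library (Lyz2 in replicate 1 and Cd3e in replicate 2) and 1 of 5 hepatocyte markers (Ttr). Over all protein-coding genes, 64.1% and 66.4% had a promoter peak in replicates 1 and 2. The median signal of the urothelial markers was 2.00, that of the smooth muscle markers 1.16 and that of the fibroblast markers 1.66. All 3 were below the median of 3.51 over all genes with a promoter peak in both libraries. By mean signal, Krt20 (0.373) and Lum (0.465) were also below the hepatocyte marker Ttr (0.537). The libraries held 84591 and 112174 peaks and 176795 and 229390 footprints. Signal values were whole multiples of 1 step per library, 0.00853 and 0.00884, in 100% of peaks within a tolerance of 0.02 of a step. What 1 step counts is not stated, and read depth was not analysed here.

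All 77 ribosomal protein genes had a promoter peak in both libraries. Over all 21853 protein-coding genes the share was 64.1% in replicate 1 and 66.4% in replicate 2. The signal was also high. The median over the 77 genes was 5.44 in replicate 1 and 6.07 in replicate 2, against 3.34 and 3.62 over the 13771 genes with a promoter peak in both libraries. By the mean of the libraries, 66 of the 77 lay above the median gene and 20 (26.0%) lay in the strongest decile, which by construction holds 10% of the 13771 genes. None lay in the lowest 2 deciles. Peak calling and signal come from a mixed tissue, in which the number of open cells and the openness per cell cannot be told apart.

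**Figure D1:**
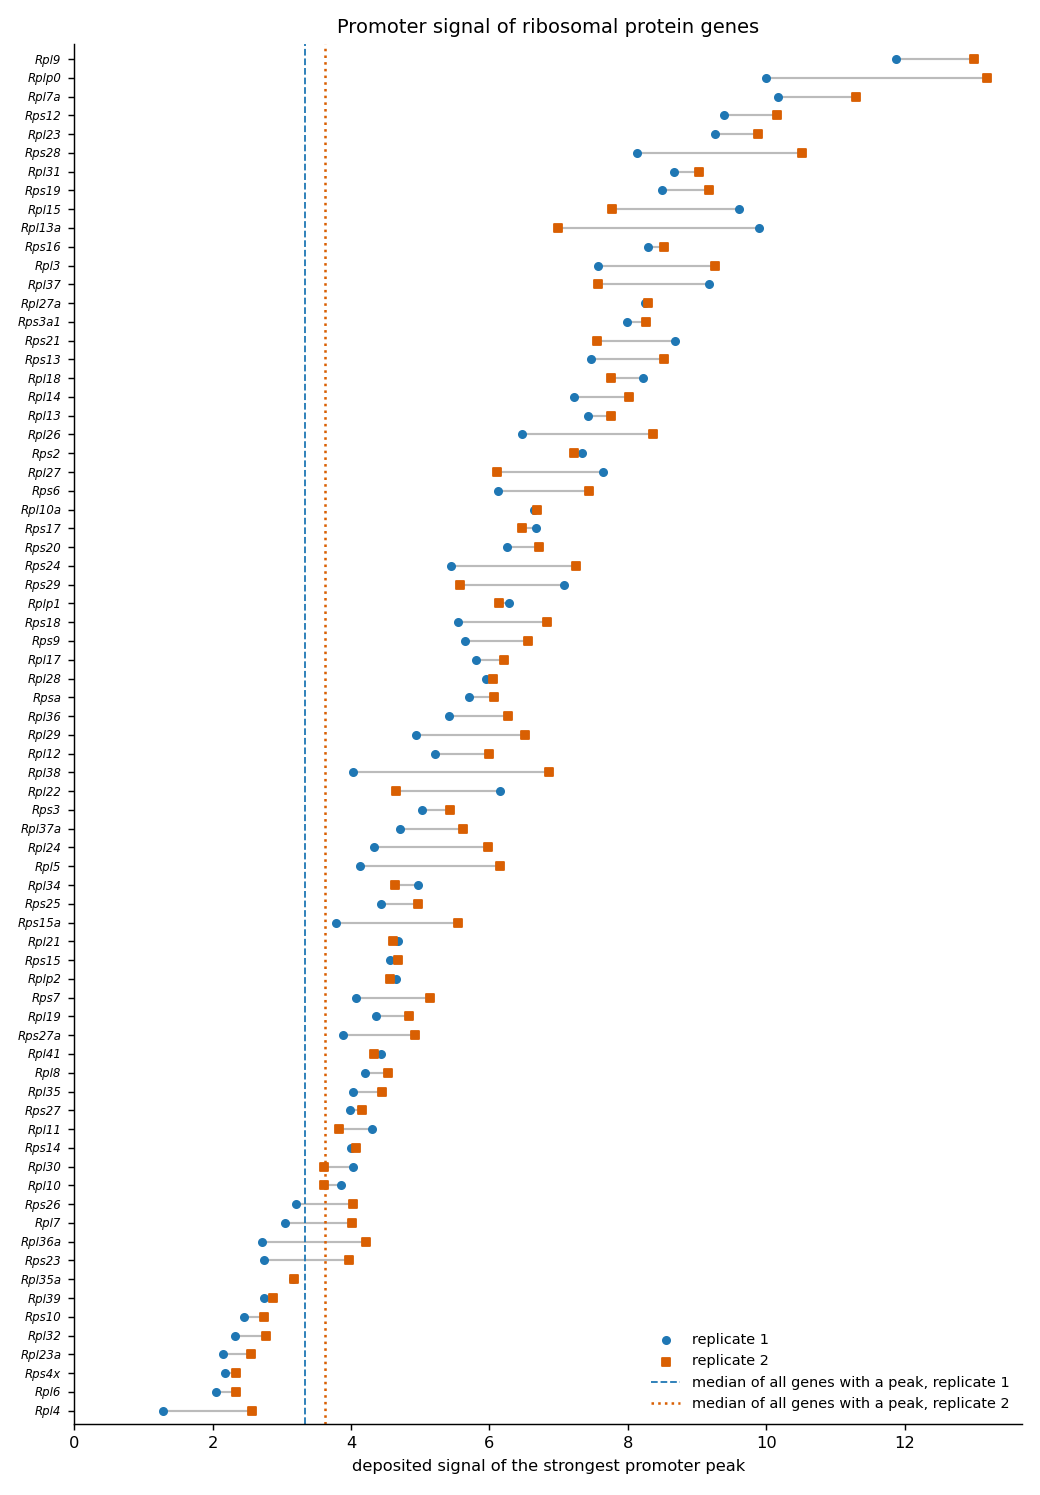
Deposited signal of the strongest promoter peak (x axis, authors' units) for each member named in the plot (y axis, ordered by mean; a few members are not shown), with circles for replicate 1, squares for replicate 2 and dashed or dotted lines at the medians of all genes with a promoter peak in both libraries. Most members lie to the right of both lines, from Rpl9 at 11.9 and 13.0 to Rpl4 at 1.29 and 2.57.

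Among the small subunit genes the mean signal ran from 2.25 to 9.77 with a median of 6.19. Rps12 led them with 9.39 in replicate 1 and 10.2 in replicate 2 (mean 9.77 ± 0.541, SD, n = 2). Rps28, which encodes a protein near the mRNA exit of the small subunit, had 8.13 and 10.5 (mean 9.33 ± 1.68, SD, n = 2). Both stood above every other small subunit gene in replicate 2, whereas in replicate 1 others, among them Rps16, Rps19 and Rps21, were above Rps28. Rpsa, whose product is also known as a laminin receptor, lay at 5.70 and 6.07. At the low end were Rps4x, an X-linked gene, with 2.17 and 2.33, and Rps10, whose protein sits where mRNA enters the ribosome, with 2.46 and 2.74.

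The large subunit genes spanned a wider range, from 1.93 to 12.4, with a median of 5.44. Rpl9 was the member of highest mean signal, 11.9 in replicate 1 and 13.0 in replicate 2 (12.4 ± 0.792, SD, n = 2). Its gene lies on the minus strand of chr5:65388364-65391444, and its start site is 53 bp from that of Lias, a lipoic acid synthase gene on the other strand, so the peak belongs to both promoters. Rpl7a followed with 10.2 and 11.3, also next to a divergent gene, Med22. Rpl23, whose product also binds the p53 regulator Mdm2, had 9.25 and 9.88. These large subunit genes stood above the other 40 in replicate 2, while in replicate 1 Rpl13a (9.90) and Rpl15 (9.60) exceeded Rpl23.

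The lowest large subunit genes were Rpl4 with 1.29 and 2.57, Rpl6 with 2.05 and 2.34, Rpl23a with 2.15 and 2.55, and Rpl32 with 2.32 and 2.77. Rpl23a encodes the protein at the exit tunnel that docks the signal recognition particle, and Rpl4 one whose extension lines the tunnel. Ordered by mean with Rps4x and Rps10 among them, each of these genes overlapped its neighbours across the libraries. All 6 were below the median of all genes with a peak in each library.

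At Rpl4 the value came from a peak away from the start site. Its strongest peak lay 614 to 355 bases before the start site in replicate 1 and 554 to 275 bases before it in replicate 2, toward the divergent gene Zwilch. The peak over the Rpl4 start site itself had a signal of only 1.11 in replicate 1 and 1.46 in replicate 2. Rpl4 therefore had a smaller signal at its own start than the value used for it here, in both libraries.

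The stalk genes encode the flexible arm that recruits elongation factors. Rplp0, the scaffold of the arm, had the second highest mean of the 77, with 9.99 in replicate 1 and 13.2 in replicate 2 (11.6 ± 2.26, SD, n = 2). Rplp1 had 6.28 and 6.13, and Rplp2 had 4.65 and 4.57. The order Rplp0, Rplp1, Rplp2 was the same in both libraries, and no value of one gene overlapped those of the next. The products of Rplp1 and Rplp2 pair with each other on the scaffold, and their promoter signals differed by more than their spread between libraries.

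The 4 members on chromosome X were all in the lower part of the list. Rpl10, whose product joins late in assembly near the catalytic centre, had 3.86 and 3.61. Rpl36a had 2.71 and 4.22, Rpl39 had 2.75 and 2.88, and Rps4x is given above. Their median was 3.14, against 5.89 for the 73 autosomal members. Over all genes with a promoter peak in both libraries the median was 1.91 on chromosome X (424 genes) and 3.58 on the autosomes (13347 genes), so a lower level on X was also present among the other genes. The mice were female, and no comparison with males was made.

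The libraries ranked the members alike. Across the 77 genes the log2 signals of replicates 1 and 2 correlated with Pearson's r at 0.921 and Spearman's rho at 0.911, a description over genes that share the same libraries. The same values over all 13771 genes, which span a wider range, were 0.964 and 0.965. As deposited, 57 of the 77 were higher in replicate 2, as were 58.7% of all genes. After centring on the median gene, whose log2 ratio was 0.07, 45 members were higher and 32 lower, with a median of 0.04.

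Only 2 members, Rpl4 and Rpl38, were more than 1.5-fold higher in replicate 2 after centring, where 5.11% of all genes were. None was lower by that fold, where 1.98% of all genes were. Rpl4 had a centred log2 ratio of 0.93 with a counting error of 0.14, read from 151 and 291 steps of the peak toward Zwilch. The peak over the Rpl4 start site differed less, with 1.11 in replicate 1 and 1.46 in replicate 2. Rpl38, which encodes a protein needed for translation of Hox mRNAs in mouse embryos, had 4.02 in replicate 1 and 6.86 in replicate 2, a centred log2 ratio of 0.70 with a counting error of 0.08. The next was Rpl36a at 0.57. On the other side stood Rpl13a at -0.57, from 9.90 to 6.99, Rpl22 at -0.47, from 6.15 to 4.65, and Rps29 at -0.41, from 7.08 to 5.58. The counting error treats each step as an independent count and covers nothing else. These differences are between single libraries and have no replicate check.

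**Figure D2:**
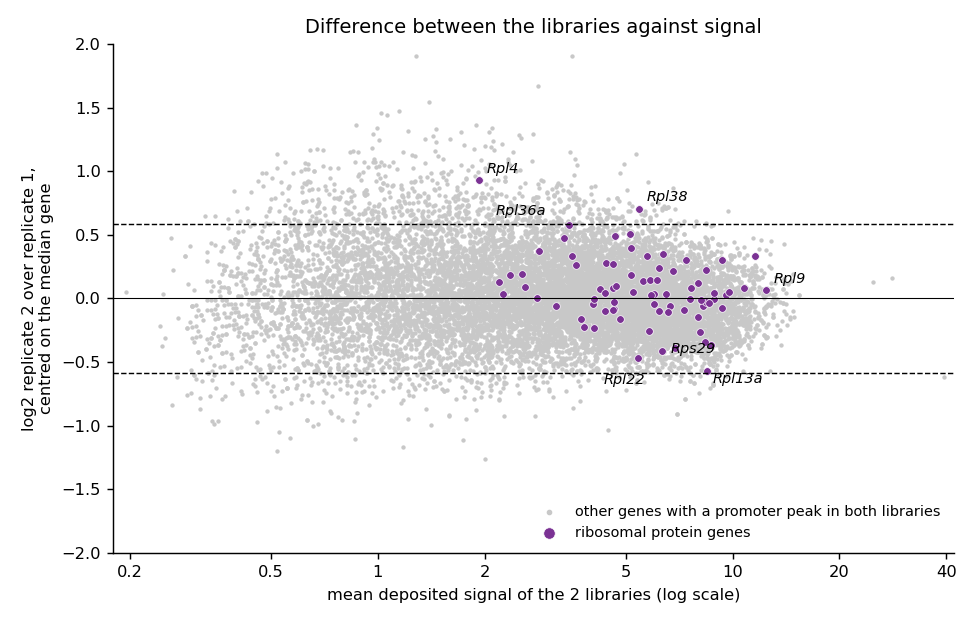
Centred log2 ratio of replicate 2 over replicate 1 (y axis) against the mean deposited signal (x axis, log scale) for the 77 members, purple, and the other genes with a promoter peak in both libraries, grey, with dashed lines at a 1.5-fold difference. Rpl4 (0.93) and Rpl38 (0.70) lie above the upper line and no member lies below the lower one.

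The strongest peaks of most of these genes lay at an annotated start site. For members and all genes alike, the start used was the one nearest to the strongest peaks, so part of the agreement was built in. Genes with more annotated starts had more to choose from, which was not adjusted for. The strongest promoter peak covered the start site in 68 members (88.3%) in replicate 1 and 67 (87.0%) in replicate 2, against 71.6% and 70.0% of all genes with a peak in both libraries. Its centre lay within 100 bp of the start site in 61 and 63 members (79.2% and 81.8%), against 64.7% and 63.3%. The strongest peaks of the libraries overlapped by at least 1 bp in 76 of 77 members and in 94.7% of all such genes. Rpl10 was the exception, named after its values were seen. In replicate 1 its strongest peak, from 231 bases before to 28 after the start site, had 3.86, and in replicate 2 a peak 591 to 352 bases before it had 3.61, ahead of the one at the start site at 3.13.

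The promoter peaks took up less DNA than those of all genes. The covered length, summed over promoter peaks, had a median of 260 bp per member in replicate 1 and 300 bp in replicate 2, against 380 and 440 bp for all genes with a peak. Peaks that overlapped each other were each counted in full. Genes with more annotated start sites had more promoter in which peaks could lie, and this was not adjusted for. A lone promoter peak was found in 46 members (59.7%) in replicate 1 and 38 (49.4%) in replicate 2, against 42.7% and 34.3% of all genes. The width of the strongest peak itself was alike, with medians of 240 and 220 bp against 220 bp in both libraries. Set against the median of genes in the same decile of signal, covered length was smaller in 57 and 55 of the 77 members.

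**Figure D3:**
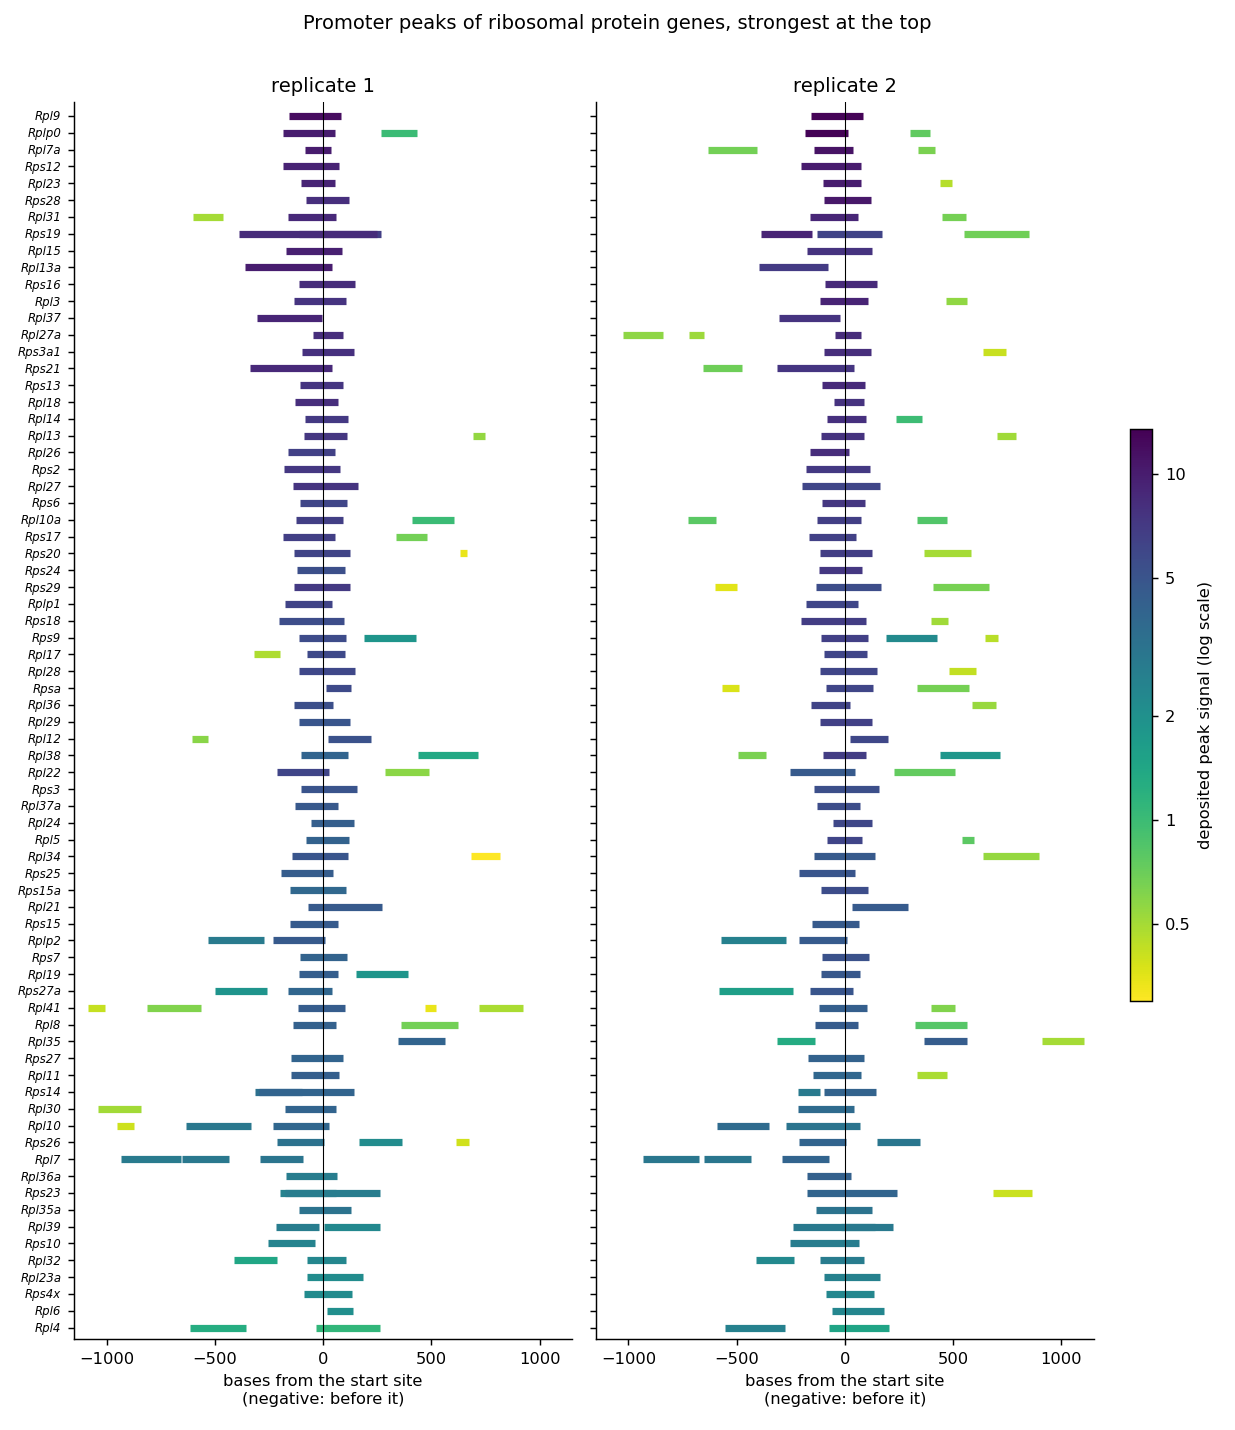
Promoter peaks of each member named in the plot (rows, highest mean signal at the top; a few members are not shown) by distance from the start site (x axis, bases) in replicate 1 (left) and replicate 2 (right), coloured by deposited signal on a log scale. Most rows hold 1 dark bar across the start site, with weaker bars to either side, and peaks at alternative start sites farther away lie outside the axis.

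The stretches of significant cutting were dense at the start site but not shorter in total. In the 20 bases from the start site on, 98.7% of the members' bases in replicate 1 and 98.8% in replicate 2 had a cut rate under the false discovery rate limit of 0.05, against 89.8% and 91.1% over all genes with a peak. Over the whole 1000 bp on either side, the median number of such bases was 801 and 934 in the members and 791 and 900 in all genes. The members' total was thus not smaller than that of all genes, unlike the length of their peaks. In the bin from -1000 to -981 bases in replicate 1, 3.90% of the members' bases were under the limit, against 7.75% in all genes.

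**Figure D4:**
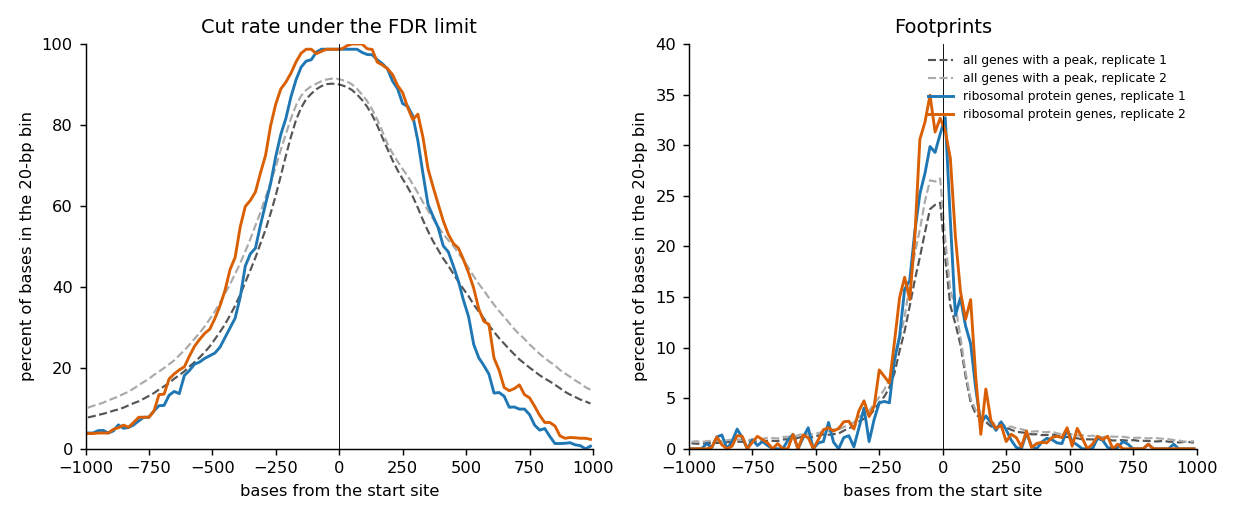
Percent of bases with a significant cut rate (left) and inside a footprint (right) in 20-bp bins around the start site (x axis, bases), for members (solid) and all genes with a promoter peak in both libraries (dashed), in both libraries. Footprints covered 32.7% of the members' bases in the first bin from the start site in replicate 1, against 18.8% in all genes.

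Footprint counts per gene were near those of all genes. The median was 5 per member in each library and 5 over all genes, and every member had at least 1 footprint in its strongest peak in both libraries, near the 96.5% and 97.4% of all genes with a peak. Over the shorter DNA that the members' peaks covered, the density was higher, with medians of 16.7 footprints per kb in both libraries against 12.0 and 11.7. Set against genes in the same decile of signal, 49 of 77 members had fewer footprints and 50 and 49 had a higher density. Across members the mean footprint count had a Pearson correlation of 0.764 with covered length and 0.08 with signal, as descriptions, since footprints were counted inside that length.

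High footprint counts were found at Rpl7 (13 and 12), Rpl18 (12 and 10) and Rps19 (12 and 9). All had several promoter peaks. Rpl7 had 3 of similar signal in replicate 1, at 3.05, 2.94 and 2.83, all before the start site. Rps19, the gene most often mutated in Diamond-Blackfan anaemia, had overlapping peaks of 8.49 and 6.79 in replicate 1. Fewest were at Rps4x, with 2 in each library.

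The DNA around the start sites was searched for 11 motifs on both strands, in the 250 bases before and the 50 from the start site on, and a stretch that matched more than 1 motif was counted under each. TCTCGCGA was found in 14 members (18.2%), against 1.49% of all 21853 genes, 2.21% of genes with a peak in both libraries and 5.15% of the strongest decile. CCGGAAG was found in 28 members (36.4%), against 11.8%, 17.2% and 20.0%. One or the other was present in 37 of 77 members (48.1%) and in 18.9% of genes with a peak, and 5 members held both. TGACGTCA, the cyclic AMP response element (CRE), was in 6 members (7.79%), against 2.59%, 3.51% and 5.52%, and is shown here in capitals for 3 of the 5 members in which it touched a footprint in both libraries.
Rpl27a (chr7:109519087-109519116, plus strand): gccgggagccgTGACGTCAggagcccttcc
Rpl13 (chr8:123102315-123102344, plus strand): gcgggttcgcgTGACGTCActtccctttcg
Rps29 (chr12:69159232-69159261, minus strand): gcggcgggccgTGACGTCActcactgtgcc

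SP/KLF and CCAAT letters were less frequent in the members than in genes with a peak. GGGCGG, of SP and KLF factors, was in 40 members (51.9%), against 47.4% of all genes, 66.4% of genes with a peak and 82.4% of the strongest decile. CCAAT, bound by NF-Y, was in 22 (28.6%), against 38.8%, 37.9% and 57.3%. TATAAA was in 8 (10.4%), against 12.0% of all genes, 6.48% of those with a peak and 4.72% of the strongest decile. AANATGGCG, of YY1, was in 6 (7.79%), against 3.34%, 4.95% and 6.17%. ACTACAA, of ZNF143, was also in 6, against 3.88%, 4.15% and 4.86%. CACGTG, the E-box, was in 8 (10.4%), against 7.98%, 10.2% and 12.4%. GCATGCGC, of NRF1, was in 5 (6.49%), against 3.96%, 5.24% and 9.14%. TGANTCA, of AP-1, was also in 5, against 6.61%, 4.81% and 4.14%. With 5 to 8 members each, these shares rest on few genes. A match is a stretch of letters and does not show that a factor was bound.

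**Figure D5:**
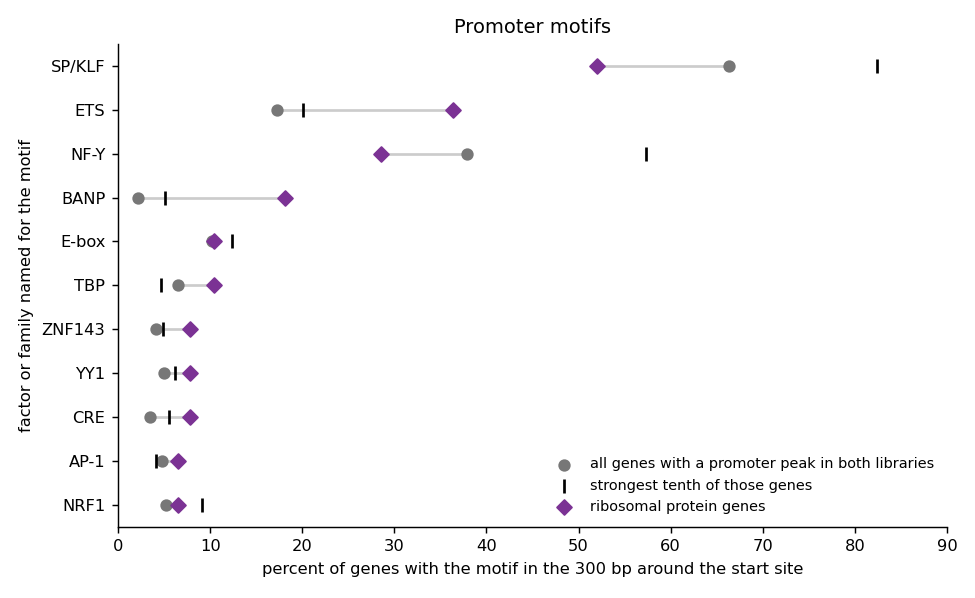
Percent of genes (x axis) with each motif (y axis, named for its factor or family; BANP stands for the palindrome shown above, NF-Y for the CCAAT letters and TBP for the TATA letters) among the members (diamonds), all genes with a promoter peak in both libraries (grey circles) and the strongest decile of those (bars). The diamonds lie to the right of both other marks for BANP (18.2%) and ETS (36.4%) and to the left for SP/KLF (51.9%) and NF-Y (28.6%). By smaller margins they also lie to the right for CRE, TBP, YY1, ZNF143 and AP-1, each held by few members.

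Footprints met these letters unevenly. Of the 14 TCTCGCGA sites, 9 touched a footprint by at least 1 base in both libraries and 12 in at least 1 library. Both sites that never did lay far from the start, 221 bases before that of Rps19 and 243 before that of Rpl4. The corresponding counts were 17 and 24 of 33 for ETS, 35 and 47 of 61 for SP and KLF, and 5 and 5 of 6 for CRE. For CCAAT they were only 6 and 11 of 31, and for AP-1 they were 0 and 1 of 5. Footprints took up 26.6% and 30.5% of the bases in the members' strongest promoter peaks. That is a share of bases and not a background for the shares of sites, where 1 base in a footprint was enough. Counting sites inside the strongest promoter peaks, library by library, allowed a comparison with all genes. TCTCGCGA sites touched a footprint in 70.6% and 80.0% of cases in the members and in 78.4% over all genes in each library. For ETS the shares were 54.5% and 55.9% against 52.3% and 55.2%, for SP and KLF 67.1% and 72.1% against 59.3% and 64.6%, and for CRE 83.3% and 80.0% against 93.3% and 93.1%. For CCAAT, 9 of 30 and 10 of 27 member sites did, against 30.3% and 32.3% over all genes. The lower share for CCAAT than for TCTCGCGA, ETS, SP and KLF or CRE was thus also present over all genes. AP-1 sites were lower still over all genes, at 24.6% and 26.5%.

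The position of the matches was close to the start. The median TCTCGCGA site in the members began 27.5 bases before it, the median ETS site 33 and the median SP and KLF site 55. The 14 members with TCTCGCGA had a median mean signal of 7.09, and the 63 without it 5.40. They included Rpl7a and Rps28, among the 6 highest, and also Rpl4 and Rpl23a, among the 6 lowest. The 28 members with the ETS core had 5.66, and the 49 without it 5.83. Over all genes with a peak the values were 5.91 with and 3.45 without TCTCGCGA, and 4.46 with and 3.22 without ETS, and the members' promoters were part of these sets.

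Most members were poorer in GC than genes of like signal. The GC content of the 300 bases had a median of 56.3%, against 61.3% over all genes with a peak, and 65 of 77 members lay below the median of their own decile of signal. It ran from 39.3% at Rpl4 to 72.3% at Rps10. The ratio of observed to expected CpG was nevertheless higher, 0.880 against 0.764, and 50 of 77 exceeded the median of their decile. A run of 5 or more pyrimidines begun by C within 10 bases of the annotated start was present in 38 members (49.4%), against 30.9% of genes with a peak. At the start sites of the RefSeq table, which held 57 of the members, it was present in 34 (59.6%) against 37.0%.

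Many members host other genes. The 77 members held 58 of the 1507 annotated snoRNA genes, inside 30 of the genes (39.0%), against 1.17% of all 21853 genes. Rpl4 held 5 and Rpl13a held 4. The members with snoRNA genes had a median signal of 5.95 and those without 5.44. A divergent gene started within 1000 bp upstream of 12 members (15.6%), close to the 13.8% of all genes with a peak. These included Rpl9 with Lias, Rpl7a with Med22 and Rps28 with Ndufa7, the last only 10 bp apart. The 12 had a median signal of 5.89 and the other 65 had 5.83, while over all genes the medians were 5.35 with and 3.18 without such a neighbour.

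Related genes gave a frame for these levels. All 22 other translation genes, which include elongation and initiation factors, had a promoter peak in both libraries, with a median signal of 6.91. Npm1, a nucleolar chaperone, had 10.3 and 9.14, Eif3e 8.70 and 9.90, and Tpt1 9.14 and 8.99. Fau, at 7.66 and 7.38, and Rack1, at 3.52 and 4.21, lay within the range of the members. All 26 genes of ribosome assembly and RNA polymerase I had a peak as well, with a median of 4.98, led by Nop56 at 8.97 and 11.1, Rrp9 at 10.6 and 8.38, and Sbds at 7.75 and 7.97. So did all 19 genes of candidate regulators, with a median of 5.56, led by Zfp143 at 11.2 and 14.0, Nfya at 10.2 and 12.5, and Max at 10.6 and 7.94. A peak at a factor's own promoter does not measure the factor.

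The paralogues divided. Of 10 annotated genes that resemble members but fall outside the rule, 4 had a promoter peak in both libraries. Rpl22l1, the paralogue of Rpl22, had 9.69 and 11.9, above the 6.15 and 4.65 of Rpl22 itself. Rpl36al had 7.96 and 7.83, above the X-linked Rpl36a at 2.71 and 4.22. Rps27l had 5.43 and 4.14 and Rpl7l1 had 3.61 and 4.17. No peak was listed in either library at Rpl3l, known from muscle, Rpl10l, known from testis, Rpl39l, Rps27rt, Rpl36a-ps1 or Rpl9-ps6.

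Processed pseudogenes, copies of spliced mRNA returned to the genome without their promoters, were a contrast within the family. There were 287 named after 55 of the members. A peak lay within 1000 bp of the 5′ end of 12 in replicate 1 (4.18%) and 11 in replicate 2 (3.83%), where 3.67% and 4.85% of all 9940 processed pseudogenes had one, so their share was near that background. In both libraries 8 of the 287 (2.79%) had a peak, and the same share over all processed pseudogenes was not counted. The highest were Rpl29-ps2 with 3.98 and 3.17 and Rpl35a-ps3 with 1.70 and 2.56, both within 1000 bp of the start site of a coding gene. Rpl9-ps3 had 1.69 and 1.61, Rpl34-ps1 had 0.844 and 2.20, and Rpl30-ps6 had 1.23 and 1.37. A peak overlapped the pseudogene itself in 5 cases (1.74%) in each library, near the 1.41% and 1.80% of all processed pseudogenes. How reads that match both a pseudogene and its parent gene were placed is not stated in the sources used here.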

How the data were processed

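DNase-seq peaks, footprints and cut-rate stretches of 2 bladder libraries were used as deposited on mm10. The authors' peak signal (unit signal) was taken from the longer list of each library, and the authors' false discovery rate, a p-value type of measure, was listed only for bases under 0.05. Footprints carry the constant 0.01. The aligner and peak caller used were not given in the sources used here. Promoters, peaks and footprints were joined by an overlap of at least 1 bp with Python 3.11.15, pandas 2.3.3 and numpy 2.4.6, and the joining code was tested on simulated data. The start site used for sequence, distances, peak positions and profiles was the annotated one nearest to the strongest peaks. With 1 group of 2 libraries no test was run, and values are given per library. Named genes were the 6 highest and 6 lowest members, the 3 most shifted each way between libraries, the 4 with most footprints, the X, Rplp and Rpsa genes, the 3 highest of each list with all that lacked a peak, and the 5 highest pseudogenes. The members and lists were chosen with earlier results of these data known. Promoter width, peak list, shared peaks, peak centre, peak sums, centring and each library alone were tried as alternatives. A few genes are not reported here by name, in text or plots, and their values enter counts and medians only.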

Additional observations from a re-analysis of the deposited data

How the results depend on the processing

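All 77 members kept a promoter peak in both libraries with 500 or 2000 bp on either side, with the shorter peak list, with the peak centre inside the promoter, and with start sites of any transcript, an alternative chosen after seeing the data. When peaks that also lay in another gene's promoter were left out, 64 members (of 77) kept one, and the share of all genes fell to 54.0% and 56.4%. The median signal of 5.76 (mean of both libraries) became 6.54 when all promoter peaks were summed, and ran from 5.44 to 6.07 with 1 library alone. The centred difference between libraries, 0.04 (log2), stayed above 0 in each alternative run and came to 1.67 percentile points by ranks. The median of 5 footprints became 4.5 for footprints wholly inside a peak, for the strongest peak only and for the shorter list, and 16.6 per kb. The share of pseudogenes with a peak, 4.01% on average, fell to 1.74% for overlap with the pseudogene itself and to 3.36% away from coding start sites. At RefSeq start sites, also chosen after seeing the data, 24 of 57 members held the ETS core, against 13.4% of all 16515 genes there, and 11 held TCTCGCGA, against 1.63%. Of single members under the width, list, shared-peak, centre and start-site alternatives, only Rpl41 moved by more than its spread, to 4.57 with 2000 bp. With 2 libraries, the SD of a gene rests on 1 difference, and leaving out a library cannot move its mean by more than that SD, so it tests nothing for single genes.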

Other observations

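Annotated start sites and open chromatin disagreed at a few members, which were chosen after their values were seen. At Rpl35 the strongest peak lay 344 to 563 bases after the GENCODE start site in replicate 1 (signal 4.02) and 364 to 563 bases after it in replicate 2 (4.44), and no peak covered the annotated start in either library. At Rpl7 the 3 peaks of each library all lay before the start site. TATAAA letters, which normally lie before a start, began after it at 6 of 9 sites, with a median of 17 bases after the annotated start, among them 17 bases after that of Rplp0 and 37 after that of Rps28, both touching a footprint in both libraries.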
